A study of Mus musculus with 14 samples.

Results

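Alcohol and aldehyde dehydrogenases were followed across cultured mouse hepatoblasts through 9 genes: the alcohol dehydrogenases Adh1, Adh5 and Adh7, and the aldehyde dehydrogenases Aldh1a1, Aldh1a3, Aldh1b1, Aldh2, Aldh3a2 and Aldh9a1. They were picked from the 12393 genes measured with earlier results of these data known, as were the further gene lists below. All 9 had at least 1 probe set, with 15 in all. For each gene the probe set with the highest mean over the 14 arrays was used, and the others served as a check. Alcohol dehydrogenases oxidise alcohols such as ethanol and retinol to aldehydes or ketones, and aldehyde dehydrogenases turn aldehydes into acids, both with a nicotinamide cofactor. In liver the pathway is known for the removal of ethanol and acetaldehyde, and the same chemistry makes retinoic acid from vitamin A. Adult hepatocytes are a main site of Adh1, whereas Adh7 is best known from the stomach lining.

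The cells were hepatoblasts, the bipotent progenitors of fetal liver, taken from wild-type mouse embryos at day 14 and immortalised by growth at clonal density. A doxycycline-inducible system carried no insert (vector), IDH1 in its wild-type or R132C mutant form, or IDH2 in its wild-type or R172K mutant form. IDH1 and IDH2 are isocitrate dehydrogenases of the cytosol and of mitochondria. Collagen-coated plates held all 5 kinds of cell. Uncoated plates held only the vector and R132C cells, for up to 5 days, which the protocol names as the hepatocyte differentiation assay. Each of these 7 groups had 2 cultures. Doxycycline at 25 ng/mL is stated for the IDH1 experiments. The sources used here do not say whether the vector and IDH2 cultures received it. Whether the cultures came from more than 1 immortalised line is not given in the sources used here. RNA was read on Affymetrix Mouse 430A 2.0 arrays, and levels are log2 of the deposited intensity.

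Median intensity per array ran from 134.9 to 148.3. Across genes the 2 arrays of a group correlated at r = 0.994 to 0.998, lowest for R172K, whose replicate 1 also had the lowest median. The lower quartile of the arrays stood at log2 4.72 to 4.81, and a level at or under it is called near background. The hepatoblast markers Hnf4a and Afp stood at log2 11.56 ± 0.075 and 10.64 ± 0.0080 in vector cells on collagen (SD, n = 2 each), while Alb, the albumin of mature hepatocytes, was near background there. Of the other hepatoblast markers Krt8 and Krt18 read 14.32 and 14.15 there, and Dlk1, Igf2 and Gpc3 only 5.35, 5.63 and 4.74. The biliary markers Krt7 and Krt19 stood at 13.20 and 13.88 in the same cells. The intestinal or gastric markers Cdx2 and Tff1 stood at 9.59 and 8.10, while Cdx1 and Fabp2 were near background. The endothelial marker Pecam1 was near background on every array. Of the measured stellate, blood and endothelial markers, 2 of 8, 2 of 5 and 1 of 5 lay above that level on every array. Group means on collagen lay between log2 11.50 and 12.11 for Idh1 and between 10.82 and 10.91 for Idh2. These signals do not check the labels, because the labels do not say whether the introduced sequences carry what the probe sets read.

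The 3 promoters shown are those of the members with the largest estimated differences in surface response between vector and R132C cells, Adh1 and Adh7, which rose in vector cells, and Aldh1a1, which fell in R132C cells. Each is the 250 bases before a RefSeq start site in GRCm38.p6, written from 5′ to 3′ on the gene's strand, with matches to the searched motifs in capitals. Adh1 lies at chr3:138277335-138277584 on the plus strand, Adh7 at chr3:138217523-138217772 on the plus strand and Aldh1a1 at chr19:20492333-20492582 on the plus strand.
Adh1: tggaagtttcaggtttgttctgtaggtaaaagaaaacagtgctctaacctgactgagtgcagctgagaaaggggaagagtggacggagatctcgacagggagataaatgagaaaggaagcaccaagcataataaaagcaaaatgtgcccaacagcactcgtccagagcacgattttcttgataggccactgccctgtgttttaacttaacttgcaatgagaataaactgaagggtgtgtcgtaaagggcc
Adh7: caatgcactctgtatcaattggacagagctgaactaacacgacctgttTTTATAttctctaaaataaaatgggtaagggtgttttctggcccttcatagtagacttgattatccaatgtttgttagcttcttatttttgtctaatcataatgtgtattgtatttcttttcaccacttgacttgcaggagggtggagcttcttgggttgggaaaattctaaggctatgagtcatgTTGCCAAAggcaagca
Aldh1a1: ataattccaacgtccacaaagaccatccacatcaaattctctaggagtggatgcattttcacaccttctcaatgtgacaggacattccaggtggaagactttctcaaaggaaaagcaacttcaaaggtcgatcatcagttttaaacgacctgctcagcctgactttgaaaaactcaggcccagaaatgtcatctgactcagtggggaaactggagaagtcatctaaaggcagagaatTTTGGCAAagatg

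Of the 9 members, 7 had promoters in that table, 9 promoters in all, and Aldh1a3 and Aldh2 are given by name. Searched on both strands were TATAAA for the TATA box, CAAAGTCCA for HNF4A, TTGCNNAA for C/EBP factors and direct repeats of AGGTCA, spaced by 5 bases for the retinoic acid receptor or by 1 base for other nuclear receptors. The printed Adh7 promoter held a C/EBP match, TTGCCAAA, that began 16 bases before the start site, and a TATA match 202 bases before it on the other strand. The printed Aldh1a1 promoter held a C/EBP match, TTTGGCAA, that began 13 bases before the start site. Aldh1a1 has a second start site, whose window at chr19:20601718-20601967 is not printed and held no match. The Adh1 window held none of these letters. C/EBP and TATA letters occurred in 9.56% and 12.4% of all 32851 promoter windows of this length, and HNF4A letters in 0.384%. The repeats spaced by 5 bases and by 1 base were in 0.00913% and 0.0335% of windows. Outside the printed windows the members had only 1 further match, TATAAA beginning 207 bases before a start site of Adh5. Adh7, Adh1, Adh6a, Adh6b, Adh4 and Adh5 lie in this order on mouse chromosome 3, with 1 pseudogene and several non-coding genes among them, and Adh6a and Adh6b had no probe set used here. Guanine and cytosine made up 44.8% of the Adh1 window, 38% of the Adh7 window and 42.8% of the Aldh1a1 window, against a median of 52.4% over all windows.

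**Figure D1:**
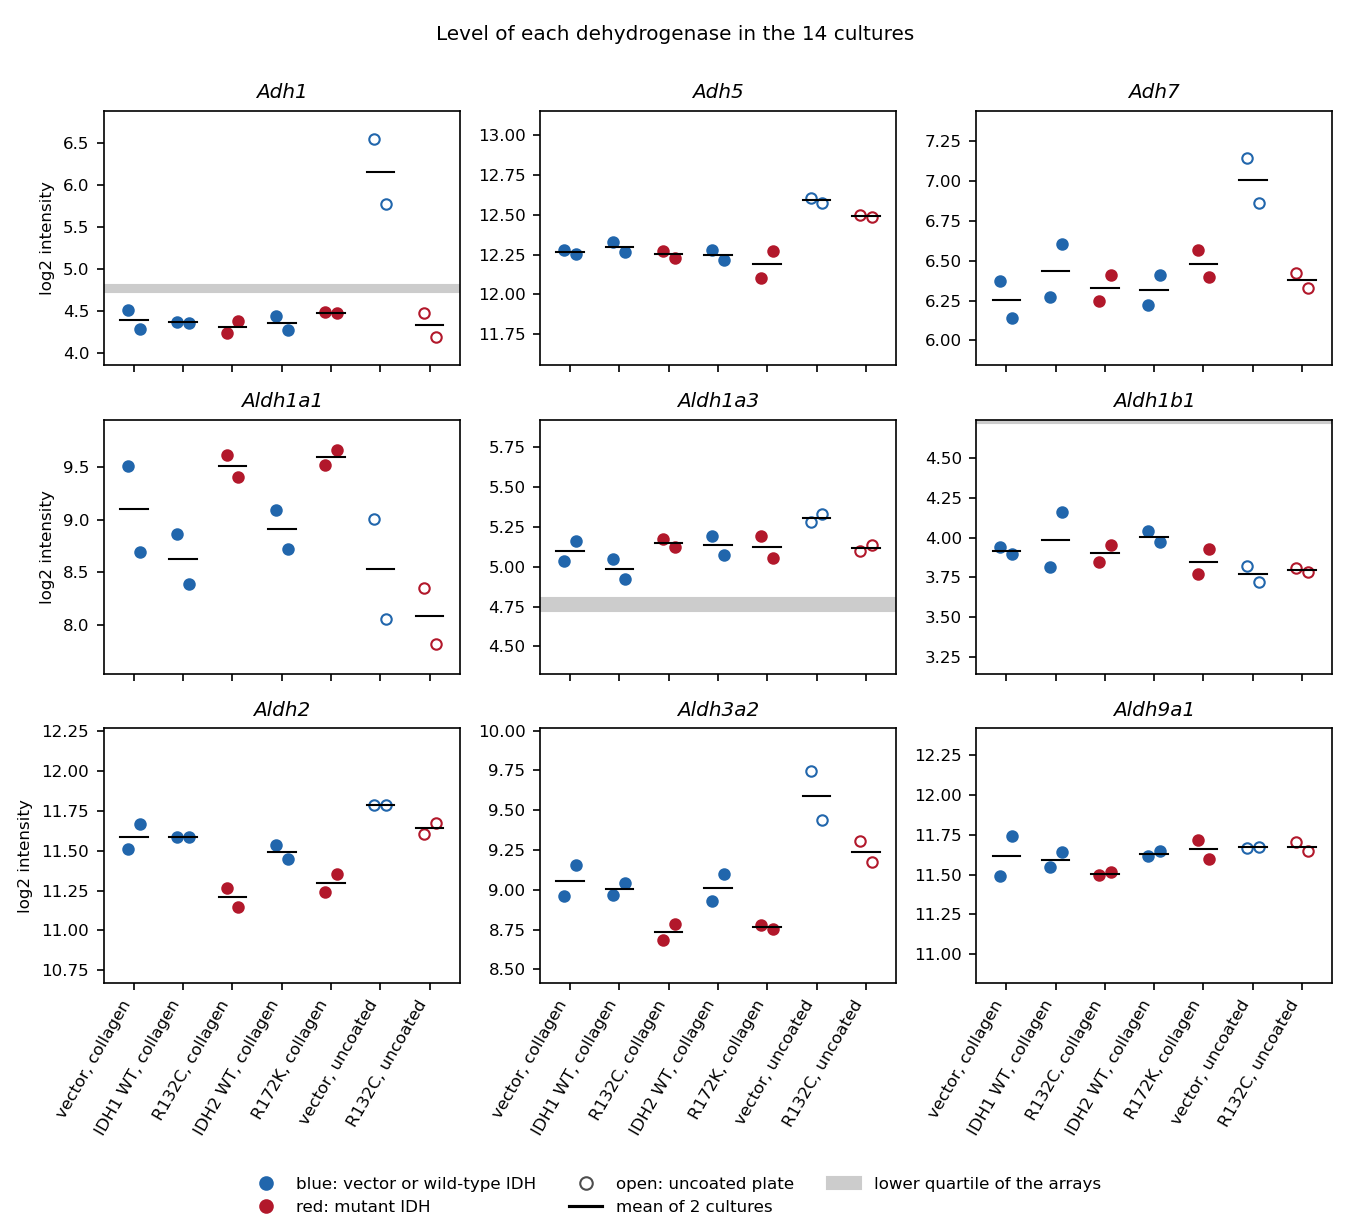
Levels of the 9 genes in all 14 cultures, as log2 intensity on the vertical axis (each panel has its own range) by group on the horizontal axis. Points are single cultures, filled on collagen and open on uncoated plates, red with mutant IDH and blue otherwise; bars are means of 2 cultures and the grey band is the lower quartile of the arrays. Adh1 lay above the band only in vector cells on uncoated plates, while Aldh2 and Aldh3a2 were lowest in the mutant cells on collagen.

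Moving vector cells from collagen to uncoated plates raised all 3 alcohol dehydrogenases and the fatty aldehyde dehydrogenase Aldh3a2. Adh1 and Adh7 changed most, and the aldehyde dehydrogenases of retinal and of mitochondria did not pass the test. By limma with Benjamini-Hochberg adjustment over all genes, 4 of the 9 members rose and none fell at adjusted p under 0.05. Of all genes tested 29.3% were called in this comparison, 15.1% as higher and 14.2% as lower. The median change of the members was log2 0.21, against -0.020 for all genes.

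Adh1, the liver's classical ethanol dehydrogenase, read log2 4.51 and 4.29 in the 2 vector cultures on collagen and 6.55 and 5.77 in the 2 on uncoated plates. The uncoated cultures lay 1.81 and 1.01 log2 units above the lower quartile of their arrays, and every other culture of the study lay under its own. The change was log2 1.76 (SE 0.20, adjusted p = 3.71e-05, limma), and its 3.39-fold size is not exact because it starts near background. With a pseudocount of 32 added to each intensity it was log2 0.97. Adh7, which oxidises retinol, read 6.37 and 6.14 on collagen and 7.15 and 6.87 on uncoated plates, with no overlap, as held for 65% of genes in this comparison. Its change was log2 0.75 (SE 0.15, adjusted p = 0.00243, limma). The second Adh7 probe set, dimmer and near background on 5 of 14 arrays, gave a larger change of log2 1.87 (SE 0.25, adjusted p = 0.000163 over all probe sets, limma). Adh5, the widely expressed enzyme that handles formaldehyde as its glutathione adduct and reduces S-nitrosoglutathione, read 12.28 and 12.26 on collagen and 12.60 and 12.58 on uncoated plates. That rise was small, 1.25-fold (log2 0.32, SE 0.070, adjusted p = 0.00352, limma), with all 4 cultures within a narrow span.

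**Figure D2:**
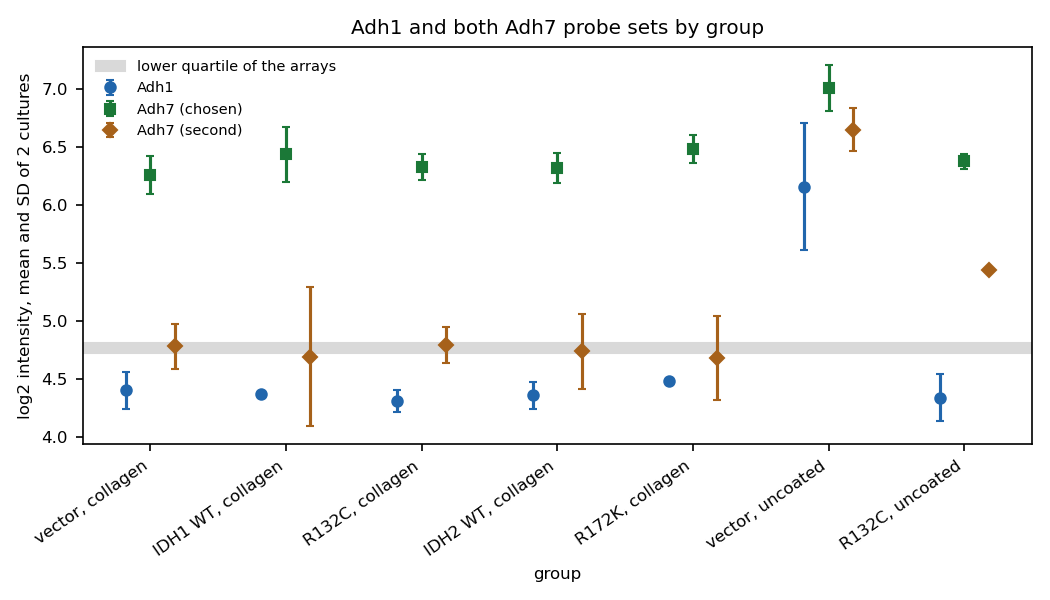
Adh1 and both Adh7 probe sets by group, as mean log2 intensity with the SD of 2 cultures (vertical axis) in the 7 groups (horizontal axis), over a grey band for the lower quartile of the arrays. All 3 probe sets were highest in vector cells on uncoated plates, and the second Adh7 probe set also stood at 5.44 in R132C cells on uncoated plates against 4.79 on collagen.

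Aldh3a2, which oxidises long-chain fatty aldehydes, read log2 8.96 and 9.15 in vector cells on collagen and 9.74 and 9.44 on uncoated plates, a 1.45-fold rise (log2 0.53, SE 0.12, adjusted p = 0.00452, limma). Adjusted p over the alternatives ran from 0.00298 to 0.0689, and it missed the threshold without vector collagen replicate 1 (0.0557) and without vector uncoated replicate 1 (0.0689). Aldh1a1, which makes retinoic acid from retinal, read 9.51 and 8.69 on collagen and 9.01 and 8.05 on uncoated plates. The groups overlapped and the change of log2 -0.58 (95% interval -1.25 to 0.10) did not pass, though it passed without vector collagen replicate 2, without vector uncoated replicate 1 and with the replicate number as a block (adjusted p = 0.0403, limma). Aldh2, the main mitochondrial enzyme for acetaldehyde, read 11.51 and 11.67 on collagen and 11.79 in both uncoated cultures, a change of 0.20 (95% interval 0.024 to 0.37, adjusted p = 0.0858, limma). It passed with cyclic loess normalization and without R172K replicate 1 or 2. Its 2 dimmer probe sets gave changes of the other sign, -0.15 and -0.13, that did not pass. Aldh1a3, the related enzyme of retinal in epithelia, changed by 0.21 (95% interval -0.032 to 0.44), between levels within a log2 unit of the lower quartile. Its dimmest probe set, near background on 13 of 14 arrays, changed by 0.82 and passed (adjusted p = 0.00392 over all probe sets, limma), while the other changed by 0.091 and did not. The mean of the 3 probe sets passed. Aldh9a1, which serves carnitine synthesis, changed by 0.052 (95% interval -0.14 to 0.24). Aldh1b1, a mitochondrial relative of Aldh2, was near background in all 14 cultures, so its change of -0.15 is between levels close to background.

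Markers of other cell types moved in the same cultures. Of all genes 29.3% were called between surfaces in vector cells and 25.9% in R132C cells, beside which the marker counts stand. Of 6 measured markers of intestinal or gastric epithelium, the transcription factor Cdx2 and the fatty acid carrier Fabp2 rose in vector cells on uncoated plates, by log2 1.73 (SE 0.20) and 1.33 (SE 0.21), and the summed intensity of the list went from 1104 to 1237 on collagen to between 2969 and 3061. In R132C cells none of the 6 passed by limma, and the sum went from between 1096 and 1253 to between 1454 and 1618. Cdx1 was near background in all of these cultures. Of 7 measured markers of mature hepatocytes the thyroid hormone carrier Ttr rose by 3.06 (SE 0.15) in vector and by 1.15 (SE 0.15) in R132C cells, where G6pc, near background in every culture, changed by -0.34 (SE 0.11). The summed intensity of that list went from between 215 and 237 to between 628 and 812, against 232 to 240 and 315 to 327 in R132C cells. Such sums weigh the brightest genes most. Ttr stood at log2 9.14 in vector cells on uncoated plates, where Alb and Apoa1 read 4.93 and 5.85. In the intestinal or gastric list the brightest gene was Cdx2. Cps1, of the urea cycle, stayed near background in these cultures, as did Tat and Cyp3a11. Of 5 measured blood markers only the leukocyte marker Ptprc was called, which rose in both kinds of cell, by 1.73 and 1.19. On collagen it was near background in 1 of 2 vector cultures and in 2 of 2 R132C cultures. Of 7 measured hepatoblast markers only Afp was called, which fell by 1.39 and 0.83. Hnf4a did not pass and read 11.71 and 11.43 on uncoated plates against 11.56 and 11.11 on collagen, in vector and R132C cells. All 4 measured biliary markers were called in vector cells, where Sox9 and Epcam rose by 2.02 and 1.83 and Krt7 and Krt19 fell by 0.84 and 0.28. In R132C cells Sox9 and Epcam rose by 1.98 and 1.08 and Krt7 fell by 0.55. Epcam was lower in R132C than in vector cells on uncoated plates by -1.49 (SE 0.21, adjusted p = 0.00218, limma), and its difference in response did not pass (-0.75, adjusted p = 0.706). Also on uncoated plates, 2 of 6 intestinal or gastric and 1 of 7 hepatocyte markers were lower in R132C cells by limma. Of 7 hepatoblast markers 1 was higher, where 2.39% of all genes were called. Cdx2, Fabp2 and Ttr read 10.15, 4.63 and 7.41 there with R132C, against 11.32, 6.02 and 9.14 with vector. For the difference in response, with 0.25% of all genes called, 1 hepatocyte marker passed, lower in R132C cells, and no intestinal or gastric marker. Krt7 and Krt19 were the brightest biliary genes and weigh most in the sum. The summed biliary intensity went from between 23900 and 27181 to between 19688 and 21934 in vector cells. In R132C cells it went from between 25350 and 26567 to between 21439 and 21627. The part of such cells in the Adh1 and Adh7 signals was not tested, and more cells of a type cannot be told apart here from more RNA per cell.

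In R132C cells moved to uncoated plates Adh5, Aldh2 and Aldh3a2 rose and Aldh1a1 fell. Adh1 and Adh7 did not pass there. By limma 3 members rose and 1 fell, where 25.9% of all genes were called, 13.6% up and 12.3% down. The median change of the members was log2 0.049, against -0.028 for all genes.

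Adh1 read log2 4.24 and 4.38 in R132C cells on collagen and 4.48 and 4.19 on uncoated plates, all near background (change 0.025, 95% interval -0.40 to 0.46). Adh7 read 6.25 and 6.41 on collagen and 6.42 and 6.33 on uncoated plates (change 0.049, 95% interval -0.28 to 0.38). Its second probe set changed by 0.65 (SE 0.25, adjusted p = 0.0849 over all probe sets, limma). Adh5 read 12.27 and 12.23 on collagen and 12.50 and 12.48 on uncoated plates, a 1.18-fold rise (log2 0.24, SE 0.070, adjusted p = 0.0227, limma). This call was lost without any 1 of the 4 R132C cultures: adjusted p was 0.0800 and 0.129 without collagen replicate 1 or 2 and 0.0983 and 0.102 without uncoated replicate 1 or 2, in a range of 0.00329 to 0.129 over all alternatives. It was also lost without the intensity trend (0.0649).

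Among the aldehyde dehydrogenases of R132C cells, Aldh1a1 read log2 9.61 and 9.40 on collagen and 8.35 and 7.82 on uncoated plates. Both uncoated cultures lay under both collagen cultures, as for 65.7% of genes when either direction is counted, and the fall was 2.68-fold (log2 -1.42, SE 0.31, adjusted p = 0.00487, limma). It missed the threshold without R132C uncoated replicate 2 (log2 -1.16, adjusted p = 0.0634, within 0.000163 to 0.0634 over the alternatives). Aldh2 read 11.27 and 11.15 on collagen and 11.61 and 11.67 on uncoated plates, a 1.35-fold rise (log2 0.43, SE 0.081, adjusted p = 0.00179, limma). Averaged with its 2 dimmer probe sets, which changed by 0.078 and 0.25 and did not pass, Aldh2 changed by 0.25 with an adjusted p of 0.0716 by limma, within 0.000384 to 0.0716 over the alternatives. Aldh3a2 read 8.68 and 8.78 on collagen and 9.31 and 9.17 on uncoated plates, a 1.42-fold rise (log2 0.51, SE 0.12, adjusted p = 0.00769, limma). It missed the threshold without R132C collagen replicate 1 (0.0698) or R132C uncoated replicate 1 (0.0596), in a range of adjusted p from 0.00316 to 0.0698. Aldh9a1 changed by 0.17 (95% interval -0.019 to 0.36), Aldh1a3 by -0.035 (95% interval -0.27 to 0.20) and Aldh1b1, near background, by -0.10. The dimmest Aldh1a3 probe set changed by 0.52 and passed (adjusted p = 0.049 over all probe sets, limma).

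**Figure D3:**
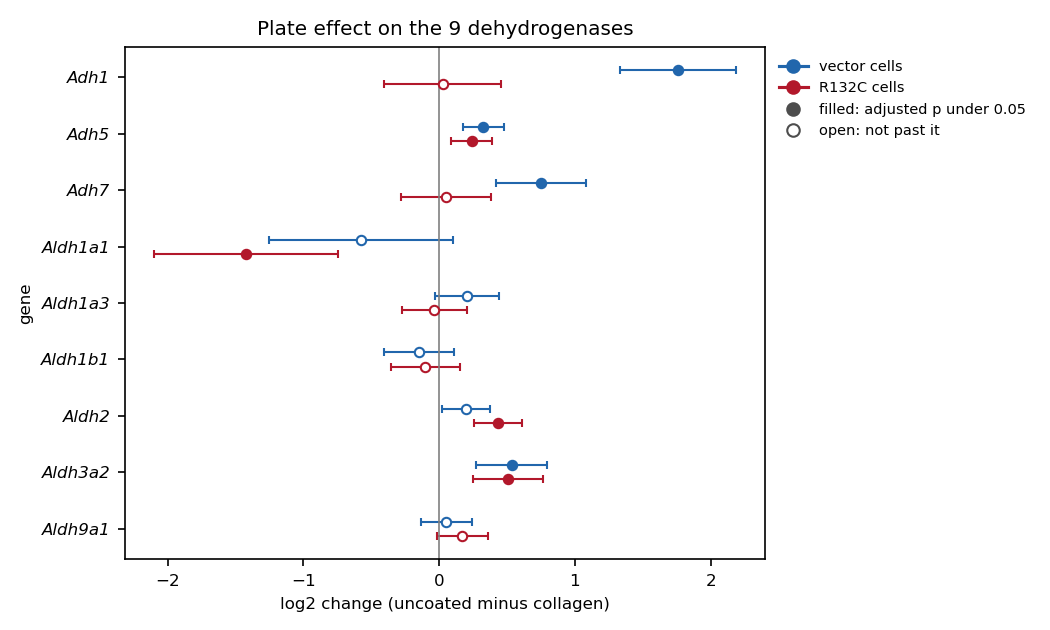
Change of each gene from collagen to uncoated plates, in log2 units with 95% intervals (horizontal axis), for vector cells (blue) and R132C cells (red), filled where the adjusted p is under 0.05. Adh5 and Aldh3a2 rose in both, Adh1 and Adh7 passed in vector cells and stood near 0 in R132C cells, and Aldh1a1 fell in R132C cells.

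Whether the response to the surface differed between R132C and vector cells was tested directly. Adh1 alone among the 9 members passed, with a change lower in R132C cells by log2 -1.73 (SE 0.28, adjusted p = 0.0178, limma). Of the 4 groups in it, 3 were near background for Adh1, so this size is not exact, and with the pseudocount it was -0.96 (adjusted p = 0.0307, limma). Of all genes 0.25% were called, 31 of them, every one with the lower change in R132C cells. The Adh1 call was lost without vector collagen replicate 2 (adjusted p = 0.0906), without R132C collagen replicate 1 or 2 (0.0776 and 0.112), without R132C uncoated replicate 2 (0.0803) and with only the 4 groups compared in the fit (0.112), in a range of 0.000427 to 0.112. Without those arrays the difference itself lay between log2 -1.59 and -1.80. For Adh7 the difference was -0.70 (95% interval -1.17 to -0.23, adjusted p = 0.431, limma), and for its second probe set -1.22 (SE 0.36, adjusted p = 0.434 over all probe sets). The difference was -0.85 for Aldh1a1 (95% interval -1.81 to 0.11) and 0.23 for Aldh2 (95% interval -0.014 to 0.48), and neither passed. Adh5 and Aldh3a2, called in both kinds of cell, differed by -0.084 (95% interval -0.30 to 0.13) and -0.027 (95% interval -0.39 to 0.34). Aldh1a3, Aldh1b1 and Aldh9a1 differed by -0.24, 0.046 and 0.12, with intervals that include 0.

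On uncoated plates R132C cells were set against vector cells, which uses the same uncoated vector cultures as the comparisons above. Adh1 was lower in R132C cells by log2 -1.82 (SE 0.20, adjusted p = 0.00035, limma), the only member past the threshold where 2.39% of all genes were called, 0.896% as higher and 1.49% as lower. Its 2 R132C cultures, at 4.48 and 4.19, were near background, so the 3.53-fold size is not exact and came to log2 -0.995 with the pseudocount. Adh7 was lower by -0.63 (SE 0.15, adjusted p = 0.0539, limma). Over 24 alternatives that p ran from 0.0237 to 0.502 and 6 passed, among them the mean of both probe sets and the fit with the replicate number as a block (0.0422). The second Adh7 probe set by itself was lower by -1.21 (SE 0.25, adjusted p = 0.0345 over all probe sets, limma). Aldh3a2, Aldh2 and Aldh1a3 differed by -0.35, -0.15 and -0.19, lower in R132C cells without overlap of the cultures, as were 47% of genes in either direction, and none passed. Adh5 was lower by -0.099, also without overlap, and did not pass. Aldh1a1 (-0.44, 95% interval -1.12 to 0.23), Aldh9a1 (0.0059) and Aldh1b1 (0.027) did not pass either.

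On collagen, mutant IDH went with lower Aldh2. Its 2 cultures read log2 11.27 and 11.15 with R132C against 11.59 and 11.59 with wild-type IDH1, and 11.24 and 11.36 with R172K against 11.54 and 11.45 with wild-type IDH2. The mean of both mutants was lower than the mean of both wild types by log2 -0.29 (SE 0.057, adjusted p = 0.0180, limma), a 1.22-fold difference. It was the only member called of 9, where 3.61% of all genes were called, 1.18% as higher and 2.44% as lower. Singly, R132C differed from wild-type IDH1 by -0.38 (SE 0.081, adjusted p = 0.161, limma) and R172K from wild-type IDH2 by -0.20 (SE 0.081, adjusted p = 0.242, limma), where 0.0484% and 1.73% of all genes were called, in the latter 0.597% as higher and 1.14% as lower. The groups did not overlap for Aldh2 in either comparison, as for 42.5% and 40.5% of all genes. By limma 3 and 2 members had an unadjusted p under 0.05 in them, as did 7.52% and 16.9% of all genes. The joint call was lost without IDH1 WT replicate 1 or 2 (adjusted p = 0.0636 and 0.0662), R132C collagen replicate 2 (0.0908) or IDH2 WT replicate 1 or 2 (0.0746 and 0.0616), and with the mean of the 3 Aldh2 probe sets (0.0884), in a range of 0.00685 to 0.0908. The 2 dimmer Aldh2 probe sets were lower by -0.14 and -0.28 and did not pass. Without R172K replicate 1, the array with the lowest median, the count of members called remained 1. Cell markers differed in the same comparison, where 1 of 7 hepatoblast markers was higher and 2 were lower with mutant IDH, and 1 of 4 biliary markers was lower. Hnf4a differed by -0.54 (SE 0.081), Krt18 by -0.20 (SE 0.039), Epcam by -0.75 (SE 0.15) and Afp by 0.84 (SE 0.15). Summed hepatoblast intensity, in which the bright Krt8 and Krt18 weigh most, lay between 41782 and 42271 with R132C and between 36922 and 39635 with R172K. It lay at 43201 to 43386 and 42244 to 44186 with wild-type IDH1 and IDH2. The part of these shifts in the Aldh2 difference was not tested.

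Aldh3a2 and Aldh1a1 showed differences with mutant IDH on collagen that did not pass, of which that of Aldh1a1 passed with the replicate number as a block. Aldh3a2 read log2 8.68 and 8.78 with R132C and 8.78 and 8.75 with R172K, under every one of the 6 vector and wild-type cultures on collagen, which lay between 8.93 and 9.15. Aldh2 was likewise separated, at most 11.36 in the 4 mutant cultures and at least 11.45 in the 6 others. Of all genes 9.65% were separated in this way, 6.19% with the mutants lower and 3.46% with them higher. The joint difference of Aldh3a2 was -0.26 (95% interval -0.44 to -0.076, adjusted p = 0.122, limma). Aldh1a1 was higher with both mutants, from 9.40 to 9.67 against 8.39 to 9.51 in the 6 others, where vector replicate 1 reached into the mutant range. Its joint difference was 0.78 (95% interval 0.31 to 1.26, adjusted p = 0.0732, limma), and 6 of 24 alternatives passed, with adjusted p between 0.00578 and 0.252. The fit with the block, whose numbers deviated together in all 10 pairs of collagen groups, gave the same difference with SE 0.14 and adjusted p = 0.00578 (limma). The remaining members had joint differences from -0.12 (Aldh1b1, near background) to 0.079 (Aldh1a3), and none passed.

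**Figure D4:**
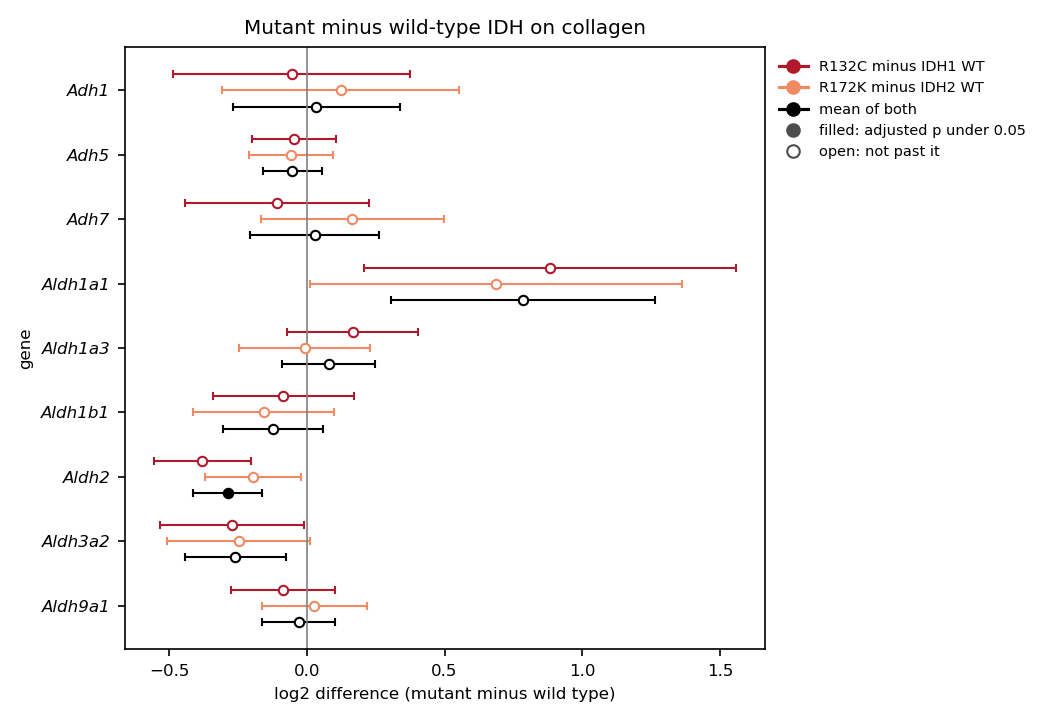
Difference of each gene between mutant and wild-type IDH on collagen, in log2 units with 95% intervals (horizontal axis), for R132C, for R172K and for the mean of both, filled where the adjusted p is under 0.05. The mean for Aldh2 at -0.29 is the only filled point, Aldh3a2 lies at -0.26 and Aldh1a1 at 0.78.

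Against the vector on collagen no member passed with any of the 4 introduced forms, by limma, where 0% of genes were called for R132C, 4.27% for R172K (1.15% higher, 3.12% lower) and 0% for either wild type. At an unadjusted p under 0.05 there were 2 members for R132C, 2 for R172K and 0 for each wild type, against 7.55%, 20.7%, 1.03% and 0.936% of all genes. Those 2 members were Aldh2 and Aldh3a2 with either mutant, neither overlapping the vector cultures, as for 39.3% of genes with R132C and 41.1% with R172K. Aldh2 differed from vector by log2 -0.38 (SE 0.081, adjusted p = 0.175, limma) with R132C and by -0.29 (SE 0.081, adjusted p = 0.0626, limma, or 0.0476 with the block) with R172K, and Aldh3a2 by -0.32 and -0.29. With wild-type IDH1 and IDH2 the differences of Aldh2 were -0.0012 and -0.095, with 95% intervals from -0.18 to 0.17 and from -0.27 to 0.081. These comparisons share the 2 vector cultures.

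The order of the 7 groups differed among members. By the chosen probe sets, vector cells on uncoated plates were highest for Adh1, Adh5, Adh7, Aldh1a3, Aldh2 and Aldh3a2. Each stood above the next group by more than the summed SD of both, and the share of all genes that do so was not counted. Each SD is of only 2 cultures. For Adh5, Aldh2 and Aldh3a2 the next group was R132C cells on uncoated plates. That difference did not pass for any of these 3 (adjusted p = 0.651, 0.506 and 0.18, limma). Both other Aldh2 probe sets were highest in vector cells on collagen, at 6.51 and 6.31, against 6.36 and 6.18 on uncoated plates. Another Aldh1a3 probe set was highest with wild-type IDH1, at 4.92 against 4.79 in vector cells on uncoated plates. The dimmest Aldh1a3 and the second Adh7 probe sets kept the order at the top. For Adh1 and the chosen Adh7 probe set the 6 groups below vector cells on uncoated plates did not differ from their neighbours beyond their spread. By the second Adh7 probe set R132C cells on uncoated plates came next, at 5.44 ± 0.0098. They stood beyond that spread above R132C cells on collagen, at 4.79 ± 0.16 (SD, n = 2 each). For Adh5, R132C cells on uncoated plates came next at log2 12.49 ± 0.0097 (SD, n = 2), apart from the 5 collagen groups, which did not separate. The order of Aldh2 ran from vector on uncoated plates (11.79 ± 0.00012), R132C on uncoated plates (11.64 ± 0.046), vector (11.59 ± 0.11), wild-type IDH1 (11.59 ± 0.00035) and wild-type IDH2 (11.49 ± 0.061) to R172K (11.30 ± 0.082) and R132C (11.21 ± 0.084) on collagen (SD, n = 2 each). In it R132C on uncoated plates, vector and wild-type IDH1 did not separate, nor did the mutants on collagen. Aldh1a1 had R172K (9.59 ± 0.10) and R132C (9.51 ± 0.15) on collagen highest and R132C on uncoated plates (8.08 ± 0.38) lowest (SD, n = 2 each), and no neighbours differed beyond their spread. For Aldh9a1 all group means lay within 0.17 of each other, and for Aldh1b1 within 0.23.

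Genes with the most similar profile over the 7 group means were sought among 1386 genes that reached log2 6 in a group and spanned at least 1 log2 unit. For Adh1 these were the chloride channel regulator Clca3a2 (Pearson r = 0.993), the diamine oxidase Aoc1 (0.991) and the intestinal pentraxin Mptx1 (0.987), and for Adh7 Clca3a2 (0.967), Mptx1 (0.953) and the fatty acid hydroxylase Cyp4f14 (0.941). Adh1 and Adh7 correlated with each other at r = 0.962 over the group means. For Adh5 they were Cxadr (0.999), Impact (0.997) and Hbp1 (0.996), and for Aldh3a2 Abhd4 (0.996), Selenom (0.994) and Rap1gap (0.993). For Aldh2 they were Relb, Pklr and Psme1 (0.970, 0.966 and 0.959), and for Aldh1a1 U90926, the oxygen-sensing hydroxylase Egln3 and Cdc42ep3 (0.958, 0.951 and 0.934). Aldh2 and Aldh3a2 correlated at 0.931, and Aldh1a1 with Aldh2 at -0.833. These values describe 7 means of the same 14 arrays, and for Adh1 and Adh7 they rest on the 1 group that stands apart.

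Other dehydrogenases of the same families changed with the surface too. Of 13 measured genes among 18 listed, 4 rose and 2 fell in vector cells, and 4 rose and 1 fell in R132C cells. Of all genes 29.3% and 25.9% were called in these comparisons. Aldh3a1, known from the cornea and from induced liver, rose by log2 1.47 (SE 0.37) in vector and 1.86 (SE 0.37) in R132C cells, from levels of 5.97 ± 0.24 and 6.50 ± 0.30 (SD, n = 2 each). Aldh6a1, the methylmalonate semialdehyde dehydrogenase of valine breakdown, rose by 1.31 (SE 0.12) and 1.12 (SE 0.12), and the mitochondrial hydroxyacid transhydrogenase Adhfe1, which uses 2-oxoglutarate as acceptor, by 1.10 (SE 0.11) and 0.74 (SE 0.11). Aldh18a1, of proline synthesis, fell by 1.16 (SE 0.30) and 0.92 (SE 0.30). Aldh3b1 rose by 0.32 (SE 0.11) in vector and 0.51 (SE 0.11) in R132C cells. The other fall called in vector cells was that of Aldh7a1, from 9.15 ± 0.089 to 8.69 ± 0.092 (SD, n = 2 each). In R132C cells Aldh7a1 read 9.02 on collagen and 8.83 on uncoated plates and did not pass. The liver enzyme Adh4 was near background in all of these cultures, as was Aldh1a2, another retinal dehydrogenase. None of the 13 passed for the difference between responses, nor for R132C against vector on uncoated plates or for both mutants on collagen, by limma, with 1, 3 and 0 at an unadjusted p under 0.05.

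Of 20 measured retinoid genes among 23 listed, 5 rose and 1 fell in vector cells on uncoated plates, and 4 rose and none fell in R132C cells, near or under the shares of all genes called (29.3% and 25.9%). The cellular retinol binder Rbp2 rose by log2 1.23 (SE 0.17) and 1.52 (SE 0.17), and the plasma carrier of retinol Rbp4 by 0.78 (SE 0.14) and 0.99 (SE 0.14). The retinal reductase Dhrs3 rose by 0.91 (SE 0.25) in vector cells and the retinol transporter Stra6 fell there by 0.50 (SE 0.16). Dhrs4, another retinal reductase, rose by 0.43 (SE 0.11) in vector and 0.52 (SE 0.11) in R132C cells. The receptor Rxrb rose by 0.28 (SE 0.096) in vector and 0.34 (SE 0.096) in R132C cells. On collagen Rbp4 was lower with R172K than with wild-type IDH2 by -1.02 (SE 0.14, adjusted p = 0.00419, limma), and lower for both mutants together by -0.77 (SE 0.098, adjusted p = 0.00168, limma). It read 12.01 and 11.66 with R172K, 12.37 in both R132C cultures and 12.70 to 13.11 in the 6 others. Against the vector, Rbp4 and Dhrs4 were lower with R172K, by -1.14 (SE 0.14) and -0.50 (SE 0.11). Cyp26a1, which breaks down retinoic acid, and Lrat, which stores retinol as its ester, were near background in vector and R132C cells on both surfaces.

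Some other enzymes of alcohols, aldehydes and their products rose on uncoated plates, and none of those listed fell past the threshold. Of 15 measured genes among 19 listed, 7 rose in vector and 9 in R132C cells, where 15.1% and 13.6% of all genes were called as higher. The glutathione transferase Gsta4, which conjugates the lipid aldehyde hydroxynonenal, rose by log2 1.71 (SE 0.25) in vector and 1.53 (SE 0.25) in R132C cells. The carbonyl reductases Cbr1 and Cbr3 rose by 1.07 (SE 0.13) and 0.98 (SE 0.18) in vector cells and by 0.86 (SE 0.13) and 1.05 (SE 0.18) in R132C cells. Catalase (Cat), which removes hydrogen peroxide and can oxidise ethanol, rose by 0.82 (SE 0.097) and 1.06 (SE 0.097). Cyp2e1, the ethanol-oxidising cytochrome of mature liver, was near background in all of these cultures. The median change of the list was 0.35 in vector and 0.45 in R132C cells, against -0.020 and -0.028 for all genes, and none passed for the difference between responses, by limma, with 0 at an unadjusted p under 0.05.

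**Figure D5:**
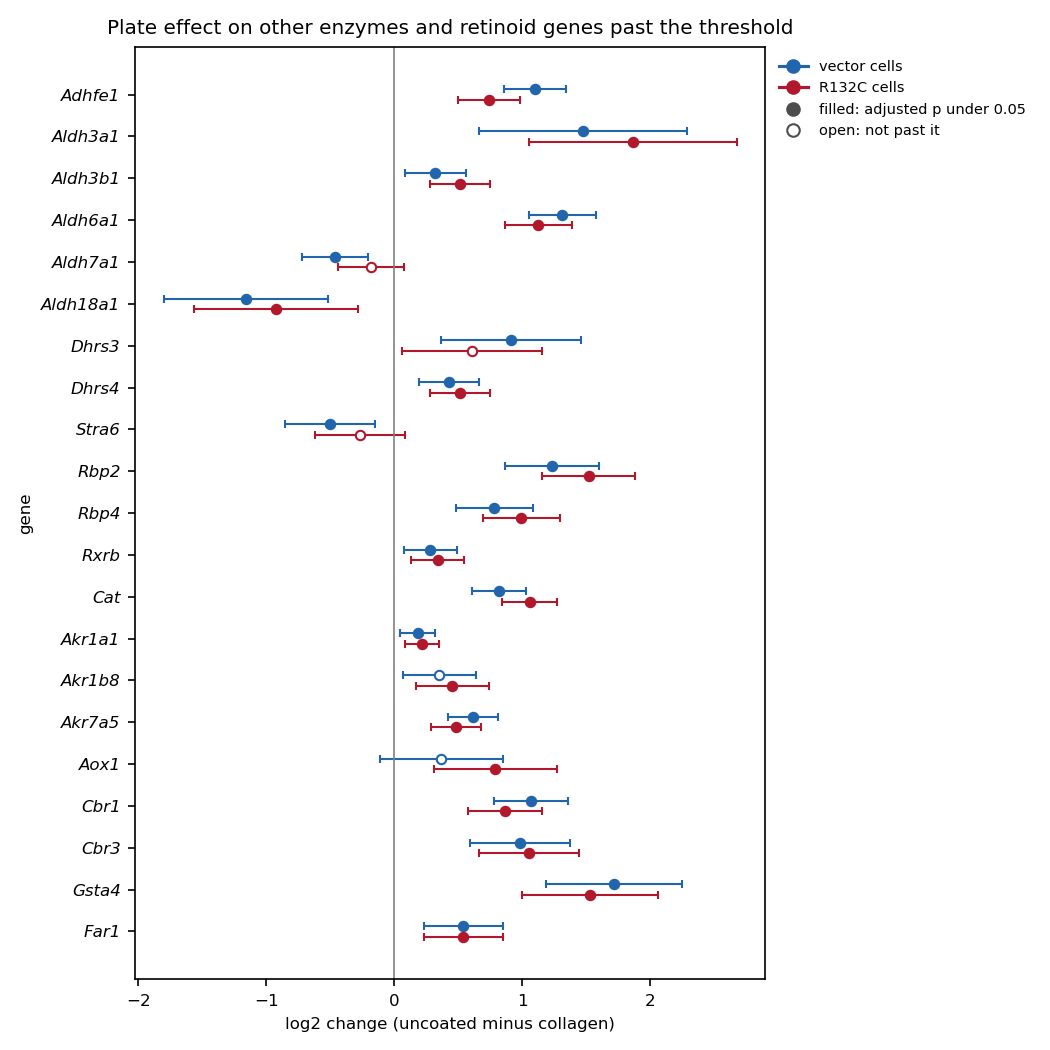
Change from collagen to uncoated plates, in log2 units with 95% intervals (horizontal axis), of the listed dehydrogenases, retinoid genes and other enzymes that passed in vector cells, R132C cells or both, for vector cells (blue) and R132C cells (red), filled where the adjusted p is under 0.05. Points of the same gene lie on the same side of 0 in both kinds of cell, with Gsta4, Aldh3a1 and Rbp2 among the larger rises and Aldh18a1 the largest fall.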

How the data were processed

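RMA, the robust multi-array average, is named in the submitters' processing notes, without version or settings. The intensity values that the authors deposited ran from 5.84 to 26770 on a linear scale, so log2 was taken. Of 22690 probe sets 64 were controls, 20380 carried 1 gene symbol, 691 several and 1555 were not in the platform table. Symbols were updated through Entrez IDs to RefSeq. Each of 12393 genes was read from 1 probe set, that of highest mean among those with its symbol alone.

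Using limma 3.58.1 (R 4.3.3), a model of 7 group means took in the 14 arrays (intensity trend, 7 residual degrees of freedom), and 11 comparisons were drawn, with Benjamini-Hochberg adjustment over all genes and calls at 0.05. Simulated data with known changes were used to test the model. Having 2 cultures per group, the number of arrays limits every value. The series text calls the replicates cultures. Each p-value sets a difference against the spread between cultures, estimated over all 7 groups together. The labels give no batch, and neither they nor the series text say that replicate numbers pair samples. Differences between replicates correlated across genes at 0.111 to 0.487 in all 10 pairs of collagen groups, so blocked values stand beside collagen results whose call they change. Between surfaces they correlated at -0.041 to 0.224, over 0.1 in 2 of 10 pairs, and between the uncoated groups at 0.26. The numbers were not taken as pairing there, and blocked values given for those comparisons are alternatives only. For vector cells the 2 surfaces correlated at -0.022.

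All 9 members are named. From each of 3 further lists (other dehydrogenases, retinoid genes, other alcohol and aldehyde enzymes) up to 4 genes past the threshold with the largest change are named in a comparison (where none passed, no more than the 2 brightest). Aldh3b1, Aldh7a1, Adh4, Aldh1a2, Cyp26a1, Lrat and Cyp2e1, and the separation of the mutant arrays on collagen, were singled out after values were seen. The members and lists were chosen with earlier results of these data known. Alternatives were an average over each gene's probe sets, every probe set by itself, cyclic loess, median centring, a pseudocount of 32, only genes above the 30th percentile of level, no trend, array weights, a replicate block, only the arrays compared, and every array omitted once, which assumes that the array left in that group varies as the other groups do. Detection calls were not used here.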

Additional observations from a re-analysis of the deposited data

Results flagged for a closer look

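Adh1 responded differently to the uncoated plate in R132C and in vector cells by the test of the difference itself, with a change lower by log2 -1.73 in R132C cells (SE 0.28, adjusted p = 0.0178, limma). Of the 4 groups 3 were near background, so the size is not exact, and with a pseudocount of 32 it was -0.96. Adjusted p ran from 0.000427 to 0.112 over the alternatives, and the call was lost in 4 of 14 fits with an array left out and with only the arrays compared. Vector cells reached log2 6.16 ± 0.55 and R132C cells 4.34 ± 0.20 on uncoated plates, from 4.40 ± 0.16 and 4.31 ± 0.095 on collagen (SD, n = 2 each). The 2 uncoated vector cultures differed from each other by more than any other pair, at 6.55 and 5.77, and both stood above all 12 other cultures.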

How the results depend on the processing

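No called change of a member reversed under any alternative. The 11 called changes of members kept their call in 103 of 107 fits with another setting. Many of the fits with an array left out dropped an array that the comparison does not use. Calls were lost only without an array of the comparison itself, as given above. For the plate effect the count of members called was 3 to 5 in vector and 2 to 4 in R132C cells with an array left out, against 4 in each. For the difference between plate effects it was 0 to 1 with an array left out, 0 with dim genes left out (which removes Adh1) and 0 with only the arrays compared. For R132C against vector on uncoated plates it was 1 to 2 with an array left out, 2 with the mean of probe sets, the pseudocount or array weights, where Adh7 was added, and 0 with dim genes left out, again without Adh1. For R172K against vector it was 0 to 1 with an array left out and 1 with dim genes left out (Aldh2). For R132C against wild-type IDH1 it was 1 with array weights (Aldh2). For both mutants it was 0 to 2 with an array left out, 0 with the mean of probe sets and 2 with only the arrays compared, where Aldh1a1 was added. With the replicate block the counts were 2 for R132C against vector on uncoated plates (with Adh7), 1 for R172K against vector (Aldh2) and 2 for both mutants (with Aldh1a1), and 5 in vector cells, where Aldh1a1 was added. Aldh1a1 was higher in replicate 1 in 6 of 7 groups. The block changed no other call of a member. Deposited summaries do not allow another background correction, so that alternative was not run.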
